A study of Mus musculus with 6 samples.

Results

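Cycling T cells of the mouse spleen are described here, chosen by their UMIs (unique molecular identifiers, each standing for 1 captured mRNA molecule). A cell was taken when it held at least 2 UMIs of Mki67, Top2a, Ccna2 and Cdk1 together and at least 1 UMI of Cd3e, no UMI of Cd79a and no UMI of C1qa, C1qb or C1qc. This gate kept 500 cells. They were 2.02% of the 24693 T cells that passed the same Cd3e, Cd79a and C1q gate, out of 38073 called cells. The other 24193 gated T cells, with 0 or 1 UMI of the 4 cycle genes, served as the comparison and are called other T cells.

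The cells came from 6 libraries of 10x Genomics 5' single-cell RNA-seq, each from sorted CD3+ CD4+ splenic T cells of 1 mouse, with B220+ and NK1.1+ cells left out of the sort per the labels. All mice were unimmunized per the study's methods, on the C57BL6/J background and 8 weeks old per the labels, though the study's methods give another age; 3 were H2-O KO (called KO) and 3 were H2-O WT (called WT). H2-O is a chaperone that shapes which peptides MHC class II molecules present, and it is made mainly by B cells, thymic medullary cells and some dendritic cells. The libraries held between 3908 called cells with 9973193 UMIs (H2-O WT replicate 1) and 9131 called cells (H2-O KO replicate 3), and the deepest held 40237962 UMIs (H2-O KO replicate 1).

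A T cell that divides first copies its DNA in S phase, with replication enzymes and new histones, and then separates the copies in G2 and mitosis (G2/M), with a condensed chromosome scaffold and a spindle. Most splenic CD4 T cells of an unimmunized mouse rest, and division is known to be more frequent among regulatory T cells (Treg, marked by the transcription factor Foxp3) and memory-like cells. Mki67 encodes a protein that coats mitotic chromosomes, Top2a the topoisomerase that untangles DNA, Ccna2 cyclin A2, and Cdk1 the kinase that drives entry into mitosis. Ccl5, a chemokine of memory and effector T cells, and Cxcr5, the receptor that guides follicular helper T cells (Tfh) to B cell follicles, were read as further subset genes.

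The genes of the H2-O chains, H2-Oa and H2-Ob, were checked first; which of them the knockout targets was not given in the sources used here. H2-Oa (mm10 build, chromosome 17, 34092340 to 34095234) stood at 29.7, 81.2 and 30.3 UMIs per 1000000 UMIs (CPM) in the B cells left in the 3 KO libraries and at 347, 197 and 432 CPM in those of the WT libraries. The groups did not overlap, but the values rested on 2 to 16 UMIs and on 4 to 34 B cells (at least 2 Cd79a UMIs, no Cd3e UMI) per library. H2-Ob (34238903 to 34254414 on the same chromosome) overlapped between genotypes in the same cells, at 569 ± 88.0 CPM (SD, n = 3) in KO and 466 ± 142 CPM (SD, n = 3) in WT, and in other T cells it was higher in KO with no overlap, at 25.7, 31.3 and 24.7 CPM against 19.2, 20.3 and 20.2 CPM. H2-Oa was low in other T cells and lower in KO with no overlap, at 4.46, 3.13 and 3.61 CPM against 5.34, 6.27 and 8.81 CPM. In the cycle-gated cells themselves H2-Oa was near the limit of detection, with 29 UMIs over all 500 cells.

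The cells with the most cycle gene UMIs carried the wider program of division, and most of the others lay near the T cells outside the gate. Of the 500 cells, 325 had 2 to 5 UMIs of the 4 cycle genes and 175 had 6 or more. A list of 45 S phase genes and a list of 52 G2/M genes, neither holding the 4 gate genes, were read per 10000 UMIs of a cell. The median cell with exactly 2 cycle gene UMIs held 10.7 S phase and 18.5 G2/M UMIs per 10000, and the median cell with 3 to 5 held 13.5 and 23.9. These were close to the 8.64 and 15.6 of T cells with no cycle gene UMI. At 6 to 20 cycle gene UMIs the medians were 67.7 and 81.0, and above 20 they were 67.5 and 169. Just outside the gate, the 1305 cells with 1 UMI stood at 9.37 and 17.1; just inside it were 245 cells with 2 UMIs.

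In every library the same step was seen. Summed over cells, the S phase list stood at 8.85 to 10.2 UMIs per 10000 with 0 or 1 cycle gene UMI, at 13.3 to 27.2 with 2 to 5, and at 60.3 to 84.0 with 6 or more. The label of cycling cells therefore fits the 175 cells with 6 or more cycle gene UMIs, and the data do not bear it out for most of the 325 below; the whole set is called cycle-gated cells here, and results are given for the 175 as well. That second threshold was chosen after seeing the data. Of the 325 cells, 233 showed 1 of the 4 genes only, against 5 of the 175. Top2a was the gene seen most often, in 245 of the 325, and it was also seen in 3.72% of other T cells, where Mki67 was seen in 1.24%, Cdk1 in 0.298% and Ccna2 in 0.141%.

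**Figure D1:**
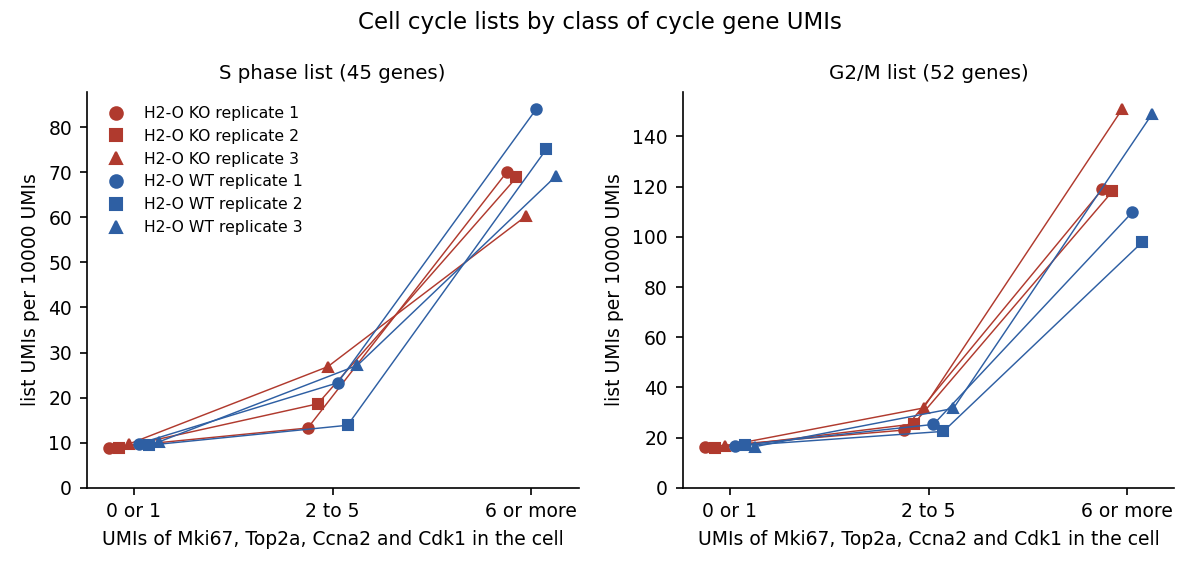
UMIs of the S phase list (left) and of the G2/M list (right) per 10000 UMIs, summed over the cells of each library, for cells with 0 or 1, 2 to 5, and 6 or more UMIs of Mki67, Top2a, Ccna2 and Cdk1; each line is 1 library. The S phase list stood at 13.3 to 27.2 in the middle class and at 60.3 to 84.0 in the upper class.

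Cells with 6 or more cycle gene UMIs were also rich in RNA. Their median UMI count was 11806 to 18945.5 by library, against 4095 to 5423 in other T cells, and 119 of the 175 held over 12000 UMIs, as did 158 of all 500 and 1.02% of other T cells. A limit of 12000 UMIs per cell would remove those cells, and none was applied here. The share of UMIs from ribosomal protein genes was lower in cycle-gated cells than in other T cells of the same library, with medians of 20.6 to 23.3% against 22.1 to 33.6%.

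The promoters of 3 of the 4 gate genes are shown because the same short motifs recur in genes of the same phase. They come from RefSeq (GRCm38.p6), run from 250 bases before to 50 bases after the gene start, and are printed 5′ to 3′ on the gene's strand. Capitals mark CCAAT boxes (CCAAT or its reverse complement), which bind NF-Y, cell cycle homology elements (TTTGAA or TTCGAA, either strand), which are known from G2/M promoters, and E2F elements (TTTCCCGC, TTTGGCGC, TTTGCCGC or TTTCGCGC, either strand), which are known from S phase promoters.
Mki67 (chr7:135716330-135716629, minus strand): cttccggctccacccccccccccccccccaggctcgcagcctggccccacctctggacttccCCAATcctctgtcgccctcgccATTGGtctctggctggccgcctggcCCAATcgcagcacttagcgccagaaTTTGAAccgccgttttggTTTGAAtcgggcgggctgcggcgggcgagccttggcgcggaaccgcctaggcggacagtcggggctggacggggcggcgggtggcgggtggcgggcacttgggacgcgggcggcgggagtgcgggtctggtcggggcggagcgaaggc
Top2a (chr11:99024140-99024439, minus strand): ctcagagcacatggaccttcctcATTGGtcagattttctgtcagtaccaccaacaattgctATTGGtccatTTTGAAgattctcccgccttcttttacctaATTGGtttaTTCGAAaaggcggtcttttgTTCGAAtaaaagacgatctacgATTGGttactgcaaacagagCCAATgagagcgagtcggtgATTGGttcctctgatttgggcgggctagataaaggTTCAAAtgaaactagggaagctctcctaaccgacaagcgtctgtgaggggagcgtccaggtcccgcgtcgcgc
Cdk1 (chr10:69352863-69353162, minus strand): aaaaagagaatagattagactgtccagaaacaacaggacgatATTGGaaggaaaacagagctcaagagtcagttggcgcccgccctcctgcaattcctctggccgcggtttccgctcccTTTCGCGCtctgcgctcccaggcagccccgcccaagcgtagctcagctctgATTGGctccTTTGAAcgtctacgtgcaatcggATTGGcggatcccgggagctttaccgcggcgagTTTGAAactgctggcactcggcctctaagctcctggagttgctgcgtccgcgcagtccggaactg
Ccna2 had no entry. By the count of matches, Mki67 held 3 CCAAT boxes and 2 homology elements, Top2a 6 and 4, and Cdk1 3 and 2 with 1 E2F element. Of the 52 genes of the G2/M list 45 had a promoter in the table, and 73.3% of these held a homology element and 75.6% a CCAAT box, against 21.7% and 41.1% of all 27025 genes. Of 33 S phase genes with a promoter, 42.4% held an E2F element, against 2.6% of all genes and 4.44% of the G2/M genes. A match is a run of letters and not a measured binding site.

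Most of the cells carried a Cd4 UMI. Cd4 was seen in 399 of the 500 and in 162 of the 175 with 6 or more cycle gene UMIs, and Cd8a in 2 of the 500. Cd8b1, the most abundant gene of the list for CD8, NK, NKT and gamma delta T cells, stood at 13.5 ± 6.15 CPM (SD, n = 6 libraries) against 17.6 ± 0.569 in other T cells, and the whole list of 8 genes summed to 36.1 ± 9.74 CPM against 30.3 ± 2.39. In the cells with 6 or more cycle gene UMIs that list stood at 109 CPM in H2-O WT replicate 1 and 75.5 CPM in H2-O WT replicate 2, against 29.3 and 34.9 CPM in other T cells of the same libraries, and at 19.0 to 35.0 CPM in the other 4. Trdc, the gamma delta receptor constant gene, was at 74.9 CPM in these cells of H2-O WT replicate 1, which held 9 of them. Over all 175 cells with 6 or more cycle gene UMIs, Trdc had 15 UMIs in 2 cells. Tcrg-C1, a gamma chain constant gene, was at 27.3 and 20.1 CPM in cells of that class in H2-O WT replicates 1 and 2. In other T cells there it was at 1.22 and 1.37 CPM. Over all cycle-gated cells Trdc had 19 UMIs in 5 cells, and Zbtb16, a transcription factor of NKT cells, stood at 9.93 ± 3.64 CPM against 6.51 ± 2.36, higher in 5 of 6 libraries. The part of such cells in the results was not tested. Thy1, which led the 10 T cell identity genes, stood at 734 ± 77.5 CPM against 541 ± 30.5.

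The B cell marker Ms4a1 had 0 UMIs, which allows up to 0.568 CPM (3 counts over all cycle-gated UMIs), and the summed list of 13 B and plasma cell genes stood at 361 ± 52.8 CPM (SD, n = 6) against 336 ± 48.3 in other T cells, most of it Ighm at 263 ± 23.2 against 257 ± 20.2. Single B cell genes stood higher, Cd79b, a part of the B cell receptor, at 10.3 ± 4.32 CPM against 3.75 ± 0.807 in 6 of 6 libraries and Igkc, an antibody light chain gene, at 15.6 ± 13.4 against 3.82 ± 1.57 in 5 of 6. Their part in the results was not tested. The 12 macrophage, monocyte and dendritic cell genes summed to 8.9 ± 3.26 CPM against 8.73 ± 2.44, with 6 of them at 0 and Hmox1 the most abundant at 4.84 ± 2.92. Erythroid genes summed to 1.11 ± 1.46 CPM, led by Hba-a2, and neutrophil genes to 0.128 ± 0.313 CPM, led by Ly6g.

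T cell receptor beta V segments were counted, since T cells caught together in a droplet would carry more than 1. After thinning each cell to 4000 UMIs, 13.4% of the cells with 6 or more cycle gene UMIs and a segment at 2 or more UMIs carried a second segment at 2 or more UMIs, against 14.1% of cycle-gated cells and 16.7% of other T cells. Without thinning, at 3 or more UMIs per segment, the shares were 28.6%, 19.5% and 12.1%. No doublet caller was run. The cycle-gated cells used many receptors, with 20 segments dominant (at least 80% of a cell's V segment UMIs) among 339 cells; the most common, Trbv3, took 11.5% of these, and Trbv13-2 took 11.9% of other T cells. Libraries shared 753 cell barcodes over all pairs, none between cycle-gated cells, and 19 cycle-gated cells carried a barcode that was called in another library.

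The share of T cells in the gate did not differ between genotypes beyond the spread between mice. It was 1.63% (119 of 7317 cells, 95% exact Clopper-Pearson interval 1.35 to 1.94%), 1.74% (62 of 3554) and 2.62% (134 of 5121) in the KO libraries and 2.42% (39 of 1609), 1.74% (69 of 3974) and 2.47% (77 of 3118) in the WT libraries. The means were 2% ± 0.541 (SD, n = 3 mice) and 2.21% ± 0.411 (SD, n = 3), and the libraries overlapped (exact permutation test, two-sided, p = 0.9). With 3 mice against 3 the smallest p that test allows is 0.1.

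For cells with 6 or more cycle gene UMIs the share was 0.547, 0.675 and 1.17% in KO and 0.559, 0.453 and 0.77% in WT. H2-O KO replicate 3, with 60 such cells, stood highest in its group, and the groups overlapped. Intervals on single libraries cover counting error only. Libraries also differed in quality. After the limit of 5% mitochondrial UMIs, 6194 of 9131 called cells were left in H2-O KO replicate 3, 2535 of 3908 in H2-O WT replicate 1 and 4897 of 7036 in H2-O WT replicate 3, against 7920 of 8374 in H2-O KO replicate 1. Other T cells with under 10% ribosomal protein UMIs made up 27.6% in H2-O WT replicate 1 and 29% in H2-O WT replicate 3, against 2.1 to 12.4% in the other libraries. Leaving out cells with under 10% ribosomal protein UMIs gave 11 genes called between genotypes in place of the 12 described further on, and a difference of 5.16 points in place of 7.45 between genotypes in the Foxp3+ share. With a limit of 10% mitochondrial UMIs these values were 14 genes and 8.91 points.

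**Figure D2:**
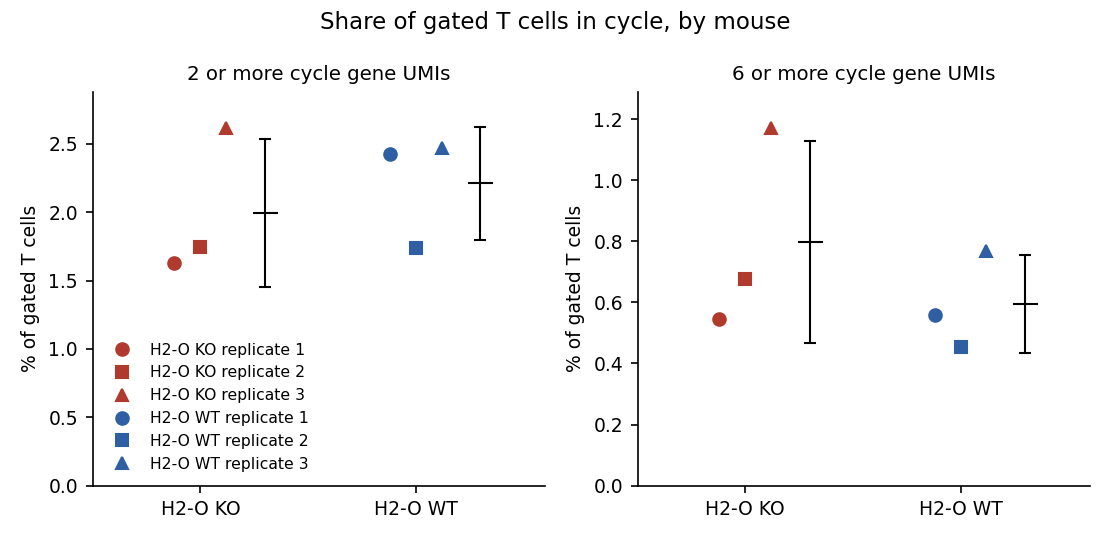
Percent of gated T cells with 2 or more (left) and with 6 or more (right) UMIs of the 4 cycle genes, 1 point per mouse, with the mean and SD of each genotype in black (n = 3). At 2 or more UMIs the KO libraries ran from 1.63 to 2.62% and the WT libraries from 1.74 to 2.47%, so the genotypes overlapped.

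Of the 500 cells, 131 (26.2%) carried a Foxp3 UMI, 89 (17.8%) a Ccl5 UMI and 59 (11.8%) a Cxcr5 UMI, and 270 (54%) carried none of the 3. Foxp3 and Ccl5 met in 24 cells, Foxp3 and Cxcr5 in 24, and Ccl5 and Cxcr5 in 3. Since cycle-gated cells hold more UMIs, the comparison with other T cells was made after thinning each cell to 2000 UMIs, which left out 10 of the 500. The loss of other T cells was uneven, from 258 of 7198 in H2-O KO replicate 1 to 809 of 3041 in H2-O WT replicate 3.

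At that depth Foxp3 was seen in 14.5% ± 4.39 (SD, n = 6 libraries) of cycle-gated cells and 6.48% ± 0.955 of other T cells. In the KO libraries the shares of cycle-gated cells were 16.8, 21 and 16.4%, against 6.18, 7.26 and 7.91% of other T cells. In the WT libraries they were 11.1, 9.09 and 12.3%, against 5.59, 5.46 and 6.45%. The cycle-gated share was the higher in 6 of 6 libraries, by 7.98 points on average (exact sign-flip permutation test over libraries, two-sided, p = 0.031, the smallest it can give; adjusted over the 3 genes 0.031).

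Ccl5 was seen in 12.2% ± 2.14 (SD, n = 6) of cycle-gated cells and 3.6% ± 1.15 of other T cells, higher in 6 of 6 libraries by 8.6 points (the same exact test, p = 0.031, adjusted 0.031). The cycle-gated shares were 8.4, 12.9 and 13.4% in KO and 13.9, 13.6 and 11% in WT, and no library of other T cells reached them, the highest being 5.24%. Cxcr5 was seen in 2.84% ± 0.81 against 1.01% ± 0.375, higher in 6 of 6 libraries by 1.83 points (exact test, p = 0.031, adjusted 0.031). That gene rested on few cells, and 3 of 6 libraries were higher after thinning to 1500 UMIs (adjusted p = 0.625, exact test). As a background without thinning, Foxp3 was seen in 1.06% and Ccl5 in 2.13% of the 94 B cells at a median of 3884 UMIs, and in 2.9% and 3.62% of 138 macrophage-gated cells (at least 2 C1q UMIs, no Cd3e UMI) at a median of 771 UMIs. The thinned Ccl5 share of other T cells, 3.6%, lay at the macrophage-gated value and above the B cell value. It is not read as a rate of expression. Without thinning, 18813 Ccl5 UMIs lay in 1169 of the 24193 other T cells. Cxcr5, which B cells make, was seen in 0 of the 138, which allows up to 2.17%, so the share in other T cells lay within that limit and the cycle-gated share a little above it, and neither is read as a rate of expression.

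The higher shares were also seen just outside the gate. Over all libraries together, the thinned shares were 6.3% for Foxp3, 3.25% for Ccl5 and 0.893% for Cxcr5 in cells with no cycle gene UMI, and 11.2, 9.4 and 2.7% in cells with 1. Foxp3 stood at 17.2% with 2 cycle gene UMIs, 15.6% with 3 to 5, 14% with 6 to 20 and 11.1% above 20.

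The Foxp3 difference did not pass the test in the cells with the most cycle gene UMIs. For the 175 cells with 6 or more, the thinned Foxp3 share was 9.8% ± 6.56 (SD, n = 6) against 6.63% ± 0.973, higher in 4 of 6 libraries (exact test, p = 0.28125, adjusted 0.421875). Ccl5 was seen in 12.1% ± 6.11 of them against 3.75% ± 1.17, again higher in 6 of 6 libraries (exact test, p = 0.031, adjusted 0.09375), while its summed level was 144 ± 147 CPM (SD, n = 6) against 145 ± 67.6, so no order is read for Ccl5 there. Within that class Ccl5 was seen in 21.1% of the 57 thinned cells with 6 to 20 cycle gene UMIs and in 4.27% of the 117 above 20, so the class value came mostly from cells near its lower end. Whether the 2 classes differed from each other was not tested. In the whole set Ccl5 stood at 418 ± 219 CPM and Foxp3 at 89.2 ± 22.4 against 50.4 ± 5.46 CPM.

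**Figure D3:**
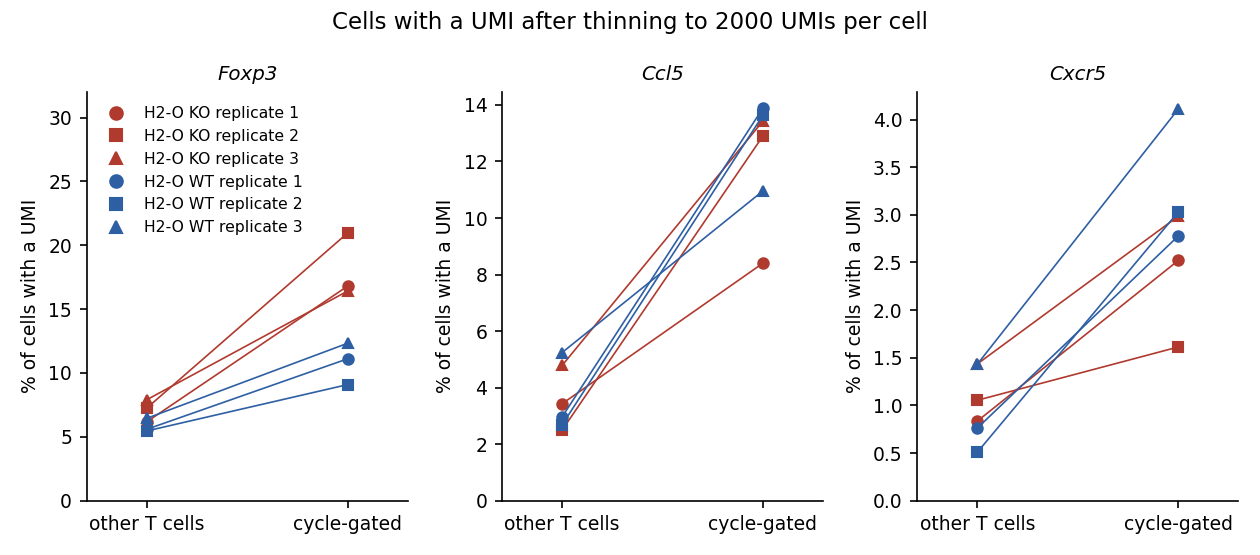
Percent of cells with a UMI of Foxp3, Ccl5 or Cxcr5 among other T cells and cycle-gated cells, each cell thinned to 2000 UMIs; each line is 1 library and the vertical scales differ. All 6 lines rise for each gene, for Foxp3 from 5.46 to 7.91% up to 9.09 to 21%.

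Read the other way, without thinning, 5.44% ± 1.27 (SD, n = 6 libraries) of T cells with a Foxp3 UMI were in the gate, against 1.75% ± 0.379 of those without. The rates were 7.64% ± 2.1 with and 1.83% ± 0.441 without a Ccl5 UMI, and 10.9% ± 4.45 with and 1.89% ± 0.391 without a Cxcr5 UMI. These rates favour deep cells on both sides and are given as values only.

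Between genotypes, Foxp3+ cells took a larger share of the cycle-gated cells in every KO mouse than in any WT mouse. The shares were 26.1% (31 of 119 cells, 95% exact interval 18.4 to 34.9%), 27.4% (17 of 62) and 32.1% (43 of 134) in KO and 17.9% (7 of 39), 23.2% (16 of 69) and 22.1% (17 of 77) in WT. The means of 28.5% ± 3.17 and 21.1% ± 2.76 (SD, n = 3 each) differed by 7.45 points (two-sided exact permutation test, p = 0.1, the smallest possible here). The Clopper-Pearson intervals of single libraries overlapped. Other T cells separated the genotypes in the same way, with a Foxp3 UMI in 9.32, 11.1 and 10.8% in KO and in 7.71, 8.37 and 7.99% in WT (means 10.4% ± 0.956 and 8.02% ± 0.335, SD, n = 3 each; exact permutation test, p = 0.1, without thinning). The excess of cycle-gated over other T cells was 16.7, 16.3 and 21.2 points in KO and 10.2, 14.8 and 14.1 points in WT, which did not overlap (exact permutation test, p = 0.1, added after seeing the data). An excess in points grows with the share in other T cells, which was higher in KO, so it is not read as a separate result. With at most 12000 UMIs per cell the difference in the cycle-gated share fell to 4.51 points and the libraries overlapped (exact permutation test, p = 0.2). Cxcr5+ shares lay the other way, at 11.8, 8.06 and 10.4% in KO and 17.9, 13.0 and 13.0% in WT, with means of 10.1% ± 1.88 and 14.7% ± 2.85 and no overlap (exact permutation test, p = 0.1). In other T cells Cxcr5 overlapped, at 2.14, 2.21 and 2.87% against 1.91, 1.69 and 2.6%. The separation of the Cxcr5+ share was lost with at most 12000 UMIs per cell (8.64, 0 and 7.61% against 15.2, 5.88 and 4.08%; exact permutation test, p = 0.6) and with the gate applied after thinning (2.68% ± 3.22 against 6.33% ± 4.18, SD, n = 3 each; exact permutation test, p = 0.4), and the difference of -4.57 points was -2.92 without H2-O WT replicate 1. Among the cells with 6 or more cycle gene UMIs both differences were wider and the libraries overlapped: Foxp3+ cells made up 34.4% ± 9.18 against 21.3% ± 8.93 and Cxcr5+ cells 12.2% ± 3.47 against 24.5% ± 10.8 (SD, n = 3 each; exact permutation test, p = 0.3 for each). Ccl5+ shares overlapped, at 15.1, 22.6 and 20.1% against 12.8, 20.3 and 14.3% (exact permutation test, p = 0.3). Over all libraries together, without thinning, Foxp3 was seen in 33.1% of cells with 6 or more cycle gene UMIs. In those with 2 to 5 it was seen in 22.5%. Cells with 6 or more were a larger part of the cycle-gated cells in every KO library than in any WT library. The part of this in the shares was not tested.

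How often Foxp3+ and Foxp3- cells were in the gate overlapped between genotypes. Of Foxp3+ T cells, 4.42, 4.21 and 7.36% were cycle-gated in KO and 5.47, 4.66 and 6.54% in WT, with means of 5.33% ± 1.76 and 5.56% ± 0.94 (SD, n = 3 each; exact permutation test, p = 0.8). Of Foxp3- T cells, the shares were 1.33, 1.43 and 2.01% against 2.16, 1.46 and 2.1%, with means of 1.59% ± 0.365 and 1.91% ± 0.388 (exact permutation test, p = 0.2).

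Phase was read as the S phase list's share of all S phase and G2/M list UMIs. It was 37.0, 37.5 and 31.0% in the cycle-gated cells of the KO libraries and 44.5, 42.6 and 34.7% in those of the WT libraries. The means were 35.2% ± 3.6 and 40.6% ± 5.23 (SD, n = 3 each; exact permutation test, two-sided, p = 0.3). H2-O WT replicate 3 lay among the KO libraries, so the groups overlapped. Other T cells, with 0 or 1 cycle gene UMI, had a share of 35.4 to 38.3% by library, so values near that range say little of phase. In the cells with 6 or more cycle gene UMIs it was 37.0, 36.8 and 28.6% in KO and 43.4, 43.4 and 31.7% in WT (exact permutation test, p = 0.3). The difference of -5.42 points was -1.84 with at most 12000 UMIs per cell, -3.35 without H2-O KO replicate 3, -3.45 without H2-O WT replicate 1 and -8.38 without H2-O WT replicate 3.

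Genes were then set side by side between cycle-gated and other T cells of the same library. As the cells were selected on cycle genes, this is a description with no test: a gene is called raised when its median ratio of (CPM + 10) over 6 libraries was at least 1 on the log2 scale and all 6 libraries lay above 0, and lowered by the mirror rule. Of 10766 genes described (at least 10 UMIs in cycle-gated cells, or at least 10 CPM in other T cells), 519 (4.82%) were raised and 75 (0.697%) lowered. In the 175 cells with 6 or more cycle gene UMIs 738 (6.85%) were raised and 291 (2.7%) lowered. The log2 ratios below are medians over 6 libraries on that scale, which understates the change of low genes.

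Over the whole set the replication machinery was raised in 39 of 45 S phase genes (median log2 ratio 1.86, against 0.06 over all genes described). These counts rest mostly on the cells with the most cycle gene UMIs. Among the 325 cells with 2 to 5, 13 of 45 S phase genes (median 0.67), 5 of 52 G2/M genes (0.27) and 3 of 16 histone genes (0.38) were raised. Among the 175 with 6 or more, 42, 46 and 15 were raised. Over all genes described, 127 (1.18%, median 0.06) were raised at 2 to 5 and 738 (6.85%) at 6 or more. These lists therefore lay above the share over all genes in both classes. Mcm6 and Mcm3, subunits of the helicase that opens DNA, stood at 316 ± 43.4 CPM (SD, n = 6) against 52.2 ± 4.15 and at 257 ± 41.0 CPM against 29.0 ± 3.34. Pcna, the clamp that holds DNA polymerase, stood at 245 ± 10.2 CPM against 74.7 ± 2.48. Rrm2, a subunit of the enzyme that makes deoxynucleotides, went from 2.38 ± 0.581 CPM in other T cells to 235 ± 42.3 CPM, a log2 ratio of 4.26. Pclaf, which binds Pcna, had the highest log2 ratio of the genes outside the lists at 5.42, and Tk1, thymidine kinase, stood at 3.59 on the same scale.

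Histone genes were raised in 15 of 16 (median log2 ratio 2.77). Hist1h2ae, a core histone H2A gene, stood at 1179 ± 256 CPM against 14.5 ± 1.95, and Hist1h1b, a linker histone, at 630 ± 248 CPM against 6.06 ± 2.63. The variant histone H2afz and the linker histone Hist1h1e were raised by 2.39 and 2.63. Outside the lists the histones Hist1h2an and Hist1h2bj stood at 3.91 and 3.42, and the histone chaperone Asf1b at 3.21. Copies of the histone genes are close in sequence, so the split between single genes is uncertain.

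G2/M genes were raised in 44 of 52 (median log2 ratio 1.97). The chromatin protein Hmgb2 stood at 2152 ± 388 CPM (SD, n = 6) against 286 ± 14.2, the tubulin Tubb4b at 431 ± 136 CPM against 128 ± 24.9, and the nuclear lamina protein Tmpo at 333 ± 38.5 CPM against 84.3 ± 5.66. Smc4, a condensin subunit, was not called, with a log2 ratio of 0.51. Outside the lists Stmn1, which takes microtubules apart, stood at 3.91, the kinetochore gene Spc24 at 3.31, the midzone gene Prc1 at 3.15, Racgap1, which acts in cytokinesis, at 3.03 and the condensin subunit Smc2 at 2.99 on the same log2 scale. The gate genes, given as values only because they chose the cells, stood at 5.52 for Mki67, 4.91 for Top2a, 3.89 for Ccna2 and 3 for Cdk1.

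Of the 9 described D and E cyclin and kinase genes 7 were raised, and the exceptions were D cyclins. Cdk4, the kinase that D cyclins activate, stood at 202 ± 12.1 CPM against 87.8 ± 13.6, and E2f2, a transcription factor of S phase genes, at 61.1 ± 19.0 CPM against 9.64 ± 1.79. Ccnd3 and Ccnd2, both D cyclins, had log2 ratios of 0.08 and -0.17. Of 15 brakes on the cycle, 1 was raised and 1 was lowered. The lowered one was Btg1, an antiproliferative gene, at 548 ± 91.9 CPM against 1185 ± 89.8. Klf2 and Foxo1, transcription factors of resting T cells, and the CDK inhibitor Cdkn1b had log2 ratios of -0.61, -0.71 and -0.62. In the 175 cells with 6 or more cycle gene UMIs, 5 of the 15 were lowered, Foxo1 and Cdkn1b among them at -1.05 and -1.14.

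Growth genes moved less. Of 22 genes of metabolism and biosynthesis 6 were raised and none lowered (median log2 ratio 0.5). Ran, a nuclear transport GTPase, stood at 763 ± 60.4 CPM against 229 ± 22.6, and the glycolytic enzyme Gapdh at 1775 ± 285 CPM against 664 ± 109. Ldha, lactate dehydrogenase, had a ratio of 0.85, and Npm1, a nucleolar protein of ribosome assembly, 0.13.

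Genes of resting, naive T cells were lowered in 6 of 10 (median log2 ratio -1.28), and in 9 of 10 among the cells with 6 or more cycle gene UMIs. Lef1, a transcription factor of naive cells, stood at 222 ± 37.4 CPM against 686 ± 60.4, and Ccr7, the receptor for homing to lymph nodes, at 248 ± 51.3 CPM against 525 ± 63.0. Tcf7 and Foxp1, also transcription factors of naive cells, had log2 ratios of -0.72 and -0.98. Of 12 genes of T cell receptor signalling and activation 1 was raised. Cd69 and Nr4a1, which follow a recent receptor signal, had ratios of -0.23 and -0.58, and the receptor regulator Cd5 and the costimulator Cd28 had 0.33 and 0.22.

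Subset genes were raised in part. Of 14 Th1 and cytotoxic genes 8 were raised, against 4.82% of all genes. S100a4, a calcium-binding protein of memory cells, stood at 413 ± 74.8 CPM (SD, n = 6) against 65.2 ± 28.0, the granule protein Nkg7 at 177 ± 47.9 CPM against 44.0 ± 10.7, and the chemokine receptor Cxcr3 at 141 ± 10.8 CPM against 34.7 ± 10.5. These 3 stayed raised in the 175 cells with 6 or more cycle gene UMIs, at log2 ratios of 2.61, 1.76 and 1.85, while the list as a whole went from 8 (median 1.25) to 5 of 14 (median 0.79) and Ccl5 from 1.58 to -0.002. Of 18 Treg genes 6 were raised, among them Ikzf2, a Treg transcription factor, at 234 ± 52.7 CPM against 97.9 ± 25.5, and Capg, an actin-capping protein, at 241 ± 50.4 against 78.5 ± 19.8. The inhibitory receptor Ctla4 had a ratio of 0.93 and the folate receptor family gene Izumo1r 0.51. Among the cells with 6 or more cycle gene UMIs 3 of the 18 were raised (median log2 ratio 0.26), against 6.85% of all genes described. Among those with 2 to 5 it was 9 of 18 (0.95), against 1.18% of all genes described.

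Of 12 Tfh genes 5 were raised, including the transcription factor Maf at 151 ± 51.0 CPM against 59.3 ± 17.3 and Cd200 at 74.0 ± 24.2 against 25.8 ± 6.27, while the signalling adaptor Sh2d1a and the receptor Slamf6 had log2 ratios of 0.88 and 0.5. Cxcr5 stood at 24.2 ± 11.1 CPM against 6.22 ± 1.84. In the cells with 6 or more cycle gene UMIs 4 of the 12 were raised, Maf and Cd200 among them at 1.01 and 1.07, and Cxcr5 was not called at 0.81. Of 4 described Th2 and Th17 genes, Rora was raised at 73.0 ± 17.5 CPM against 26.5 ± 5.35, Gata3, the Th2 factor, had a ratio of 0.33, and Ccr6, a chemokine receptor, rested on 62 UMIs.

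**Figure D4:**
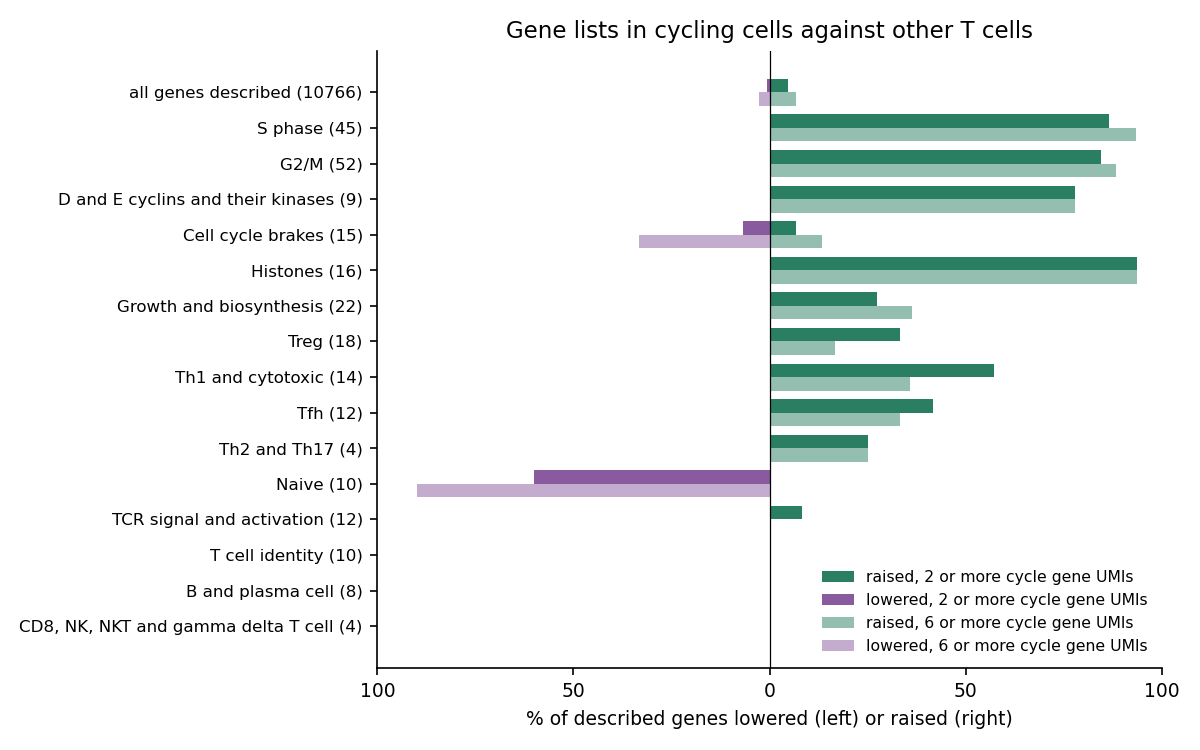
Percent of the described genes of each list that were raised (right) or lowered (left) in cycle-gated cells (dark) and in cells with 6 or more cycle gene UMIs (light) against other T cells of the same library; the number of described genes is in parentheses. S phase, G2/M and histone bars lie beyond the 4.82% of all genes, and naive genes are the main lowered list, at 6 of 10 and 9 of 10.

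KO against WT, UMIs were summed over the cycle-gated cells of each library and tested with the quasi-likelihood test of edgeR, with p-values adjusted by Benjamini-Hochberg. Of 7669 genes tested 12 (0.156%) had an adjusted p under 0.05, 4 higher and 8 lower in KO, and 696 had an unadjusted p under 0.05. All 12 had no overlap between the genotypes' libraries. The count depended on which library was left out. It was 1 without H2-O KO replicate 1 or without H2-O KO replicate 2, 2 without H2-O WT replicate 2 and 6 without H2-O WT replicate 1. It was 13 without H2-O KO replicate 3, 8 of them among the 12, and 51 without H2-O WT replicate 3. Of the 12, only Glo1 was called under all 16 alternative settings, and each of the other genes lost the call under 3 to 9 of those in which it was tested. A lost call did not always come with a smaller fold. Over the alternatives the log2 fold change ran from -2.02 to -1.68 for Trbv12-2, -1.41 to -1.07 for Galnt6 and -0.85 to -0.64 for Rpl23a. It ranged more widely for Itm2a (0.29 to 2.65) and Gm21887 (-9.53 to -2.40). Among the cells with 6 or more cycle gene UMIs 5 genes were called, 3 of them shared with the 12.

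Of the 12 genes 6 lie on chromosome 17, the chromosome of H2-Oa and H2-Ob, which held 408 of the 7669 genes tested. Their nearest ends were 0.861 to 26.1 Mb from H2-Oa. Glo1 (30584936 to 30626871), which encodes glyoxalase 1, a detoxifying enzyme, stood at 236, 226 and 202 CPM in KO and at 59.6, 70.4 and 60.9 CPM in WT. It was 3.46-fold higher in KO (log2 fold change 1.79, SE 0.147, edgeR adjusted p = 8.28e-05). Other T cells showed it too, at 164 ± 3.91 CPM (SD, n = 3) against 55.6 ± 3.24. Dnah8 (30624354 to 30877365), a dynein heavy chain gene on the opposite strand whose interval overlaps that of Glo1, so that the split of UMIs there is uncertain, stood at 134, 101 and 140 CPM against 76.6, 42.5 and 54.8 CPM (log2 fold change 1.21, SE 0.198, edgeR adjusted p = 0.0326).

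H2-T22 (36037128 to 36042747), a nonclassical MHC class I gene with close relatives, stood at 418, 371 and 389 CPM in KO and at 221, 235 and 240 CPM in WT, 1.7-fold higher (edgeR adjusted p = 0.0143). Hspa1b (34956436 to 34959238), an inducible heat shock protein 70 gene, lay the other way at 6.91, 2.84 and 9.66 CPM against 45.4, 47.8 and 116 CPM (log2 fold change -3.34, edgeR adjusted p = 0.0094; -2.67 without H2-O WT replicate 3). Its near-identical neighbour Hspa1a was not tested for low counts and stood at 0 to 3.07 CPM against 0 to 58.5 CPM, so the split between the 2 genes is uncertain. Baiap3 (25242659 to 25256364), a gene of vesicle exocytosis, had 1 UMI in all KO cells and 37 in all WT cells, a ratio per UMI of 64.4 with a 95% counting interval of 10.9 to 2610 (edgeR adjusted p = 0.00979). E430024P14Rik (7881106 to 7946426), an antisense transcript, stood at 8.4 ± 1.65 CPM against 35.7 ± 14.0 (edgeR adjusted p = 0.0347).

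For these 6 genes other T cells of the same libraries also separated the genotypes in the same direction: Dnah8 stood at 176 ± 15.7 CPM against 65.0 ± 5.27, H2-T22 at 486 ± 19.8 against 266 ± 10.3, Hspa1b at 3.26 ± 0.996 against 80.7 ± 67.4, Baiap3 at 0.156 ± 0.04 against 4.96 ± 2.35 and E430024P14Rik at 11.6 ± 2.18 against 43.9 ± 8.47 (SD, n = 3 each). Over all tested genes of chromosome 17, 9.07% had an unadjusted p under 0.05, against 9.08% of all tested genes.

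Of the other 6 genes, Rpl23a, Galnt6 and Gm21887 also separated the genotypes in other T cells. The share of all genes that separated in other T cells was not counted, and those cells came from the same mice. Rpl23a (chromosome 11), a ribosomal protein gene with processed copies, stood at 603 ± 76.2 CPM in KO and 1030.0 ± 166 in WT cycle-gated cells (edgeR adjusted p = 0.035) and at 612 ± 62.3 against 1043 ± 126 in other T cells. Galnt6 (chromosome 15), which starts O-glycans, stood at 47.7 ± 8.45 against 120 ± 23.2 CPM (edgeR adjusted p = 0.0133) and at 96.3 ± 2.82 against 161 ± 13.6 in other T cells. Gm21887 (chromosome X) stood at 0, 0 and 29.7 CPM in KO, where only H2-O KO replicate 3 held any UMI and so set the fold (fitted at -9.53 without it, which is no bound), and at 113, 118 and 122 CPM in WT (log2 fold change -3.32, edgeR adjusted p = 0.0365, and -2.40 with an adjusted p = 0.122 at no more than 12000 UMIs per cell), lost the call under 9 of 16 alternative settings, and its split from the related Gm47283, looked up after the values were seen, is uncertain.

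Itm2a and Trbv12-2 overlapped between genotypes in other T cells, where Hist1h3c was too low to compare. Itm2a (chromosome X), a membrane protein gene of activated T cells, stood at 78.3, 66.8 and 85.5 CPM in KO and at 42.5, 29.2 and 37.8 CPM in WT cycle-gated cells (log2 fold change 1.14, SE 0.195, edgeR adjusted p = 0.035), against 92.7 ± 5.74 and 90.1 ± 12.6 CPM in other T cells. Its log2 fold change was 0.29 with at most 12000 UMIs per cell (edgeR adjusted p = 0.687) and 2.65 in the cells with 6 or more cycle gene UMIs (edgeR adjusted p = 0.00482), and it was called under 7 of the 16 alternative settings. Trbv12-2 (chromosome 6), a receptor beta V segment, stood at 17.7, 12.8 and 20.1 CPM against 42.5, 66.4 and 75.5 CPM (log2 fold change -1.87, edgeR adjusted p = 0.00979), and in other T cells at 46.6 ± 4.01 against 41.7 ± 5.61. The related segment Trbv12-1, looked up after the values were seen, stood at 38.4, 0 and 55.7 CPM against 0, 37.2 and 31.7 CPM, so the split between the 2 segments is uncertain, and their sum overlapped at 56.0, 12.8 and 75.8 CPM in KO and 42.5, 104 and 107 CPM in WT. Hist1h3c (chromosome 13), a histone H3 gene, stood at 140.5, 131 and 196 CPM against 272, 319 and 468 CPM (log2 fold change -1.18, SE 0.199, edgeR adjusted p = 0.0347), and in other T cells at 0.358, 0.726 and 2.37 against 2.13, 1.27 and 2.36 CPM. Of the 16 histone genes tested, 1 was called, and 11 lay above and 5 below 0. The difference between cycle-gated and other T cells in these folds was not tested.

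**Figure D5:**
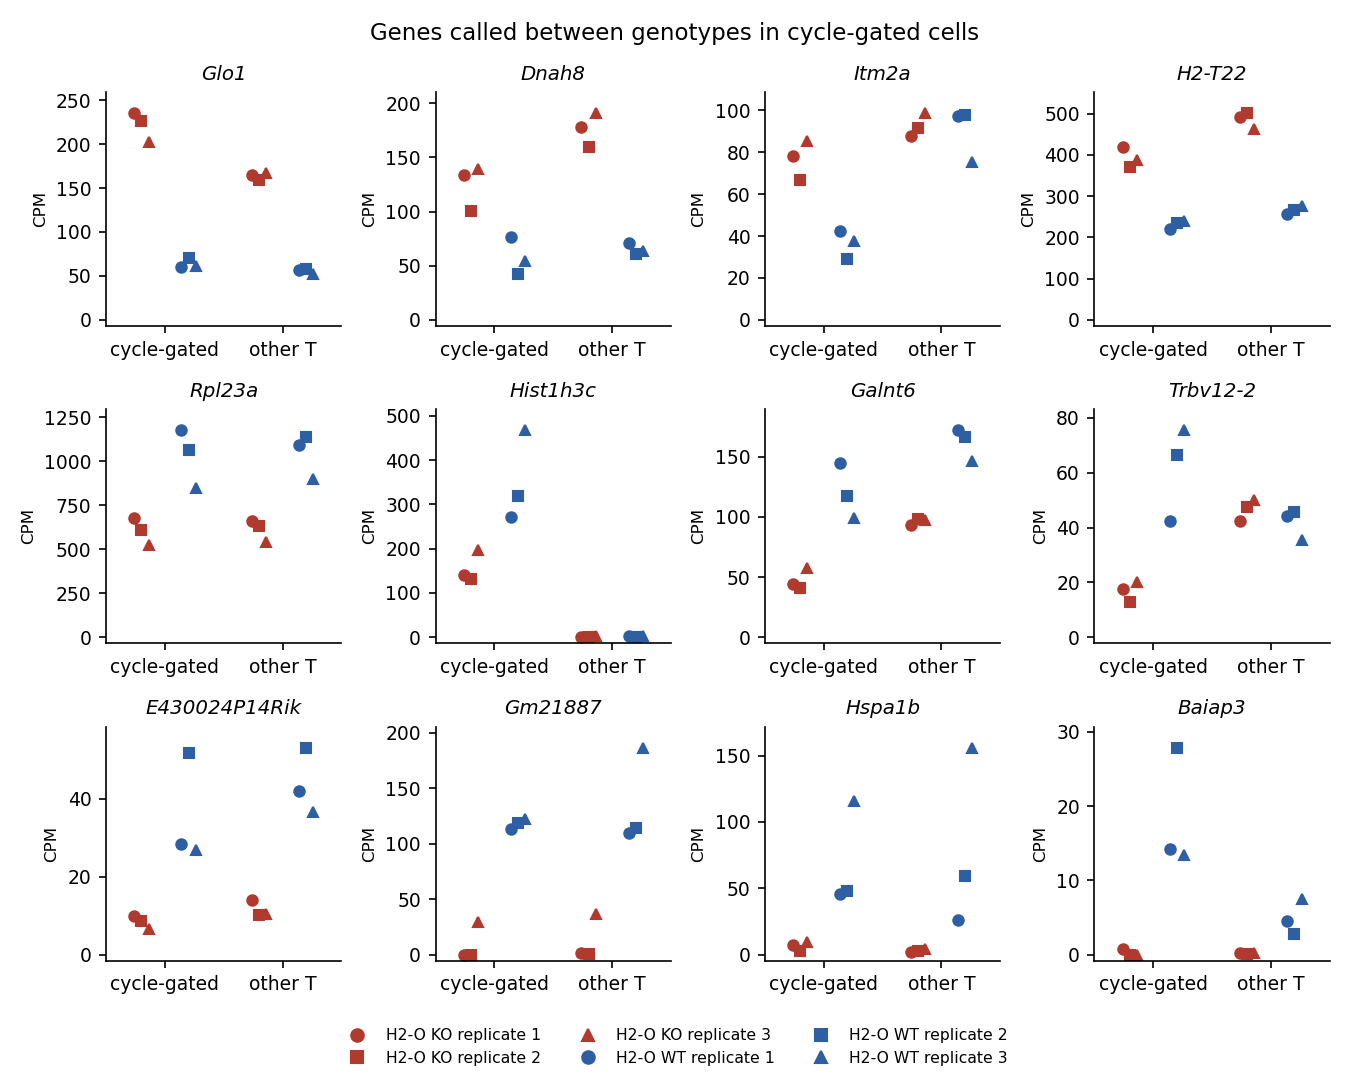
CPM of the 12 genes called between genotypes in cycle-gated cells (left in each panel) and of the same genes in other T cells (right), 1 point per library, KO in red and WT in blue; vertical scales differ and start near 0. Glo1 stood at 202 to 236 CPM in KO and at 59.6 to 70.4 CPM in WT, and for Itm2a and Trbv12-2 the genotypes overlap in other T cells, where Hist1h3c lies between 0.358 and 2.37 CPM.

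No gene of the S phase, G2/M, cyclin, brake, growth, Treg, Th1, Tfh, Th2 and Th17, naive or receptor signal lists was called between genotypes, beside 0.156% of all genes tested. Over all genes the median log2 fold change was -0.01, and 3684 of 7669 lay above 0. Of 10 Tfh genes tested (2 of the 12 listed were too low), 9 lay below 0, with a median of -0.66. Cxcr5 stood at 14.6, 19.9 and 13.4 CPM in KO and at 36.9, 21.3 and 39.0 CPM in WT (log2 fold change -1.03, SE 0.308, edgeR adjusted p = 0.329). In the same cells the B cell gene Igkc stood at 5.37, 2.84 and 12.6 CPM in KO and at 34.0, 7.97 and 30.5 CPM in WT. It was also highest in H2-O WT replicates 1 and 3. The B cell genes Cd79b and Cd74 were instead highest in H2-O KO replicate 3, at 16.4 and 93.6 CPM. Both were lowest in H2-O WT replicate 1, at 5.67 and 19.9 CPM, and stood at 10.96 and 64.6 CPM in H2-O WT replicate 3. The part of these B cell genes in the Cxcr5 values was not tested. Like Cxcr5, Tox2 and Bcl6, transcription factors of Tfh cells named after their values were seen, had no overlap, at -0.96 and -0.94 (edgeR adjusted p = 0.319 and 0.416). Il21, Pdcd1, Maf, Tnfsf8, Slamf6, Sh2d1a and Cd200 overlapped between genotypes, and the lack of overlap is not read as a result. Of 15 Treg genes tested 12 lay above 0, with a median of 0.23, and Foxp3 stood at 103 ± 1.46 against 75.9 ± 26.6 CPM (log2 fold change 0.40, edgeR adjusted p = 0.577). Of 50 G2/M genes tested 45 lay above 0, with a median of 0.28, and of 45 S phase genes 26, with a median of 0.04. The summed G2/M list overlapped between genotypes, at 8026, 8195 and 10599.5 CPM in KO and at 6045, 6228 and 9178 CPM in WT. Cells with 6 or more cycle gene UMIs were 124 of the 315 cycle-gated KO cells and 51 of the 185 WT cells. By library they were 40 of 119, 24 of 62 and 60 of 134 in KO. In WT they were 9 of 39, 18 of 69 and 24 of 77, a smaller share in every library than in any KO library. The part of this in the list values and in the 12 called genes was not tested.

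Mki67, Top2a, Ccna2, Cdk1 and Cd3e chose the cells, so their log2 fold changes of 0.11, 0.18, 0.49, -0.02 and 0.07 are values only. Ccl5 stood at -0.11 on that scale (edgeR adjusted p = 0.966). Cd4 stood at 238 ± 7.19 CPM in KO and 348 ± 54.5 in WT with no overlap (log2 fold change -0.52, edgeR adjusted p = 0.176), and in other T cells at 240.0 ± 11.4 against 301 ± 18.6. Cd8a, H2-Oa and H2-Ob were too low to be tested in the cycle-gated cells.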

How the data were processed

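Splenic CD4 T cells of 3 H2-O WT and 3 H2-O KO mice were profiled with 10x Genomics 5' v1.1 chemistry. The deposited files hold raw UMI counts per gene and cell that the authors made with Cell Ranger 6.1.2 against mm10, per the labels. The libraries held 9973193 to 40237962 UMIs in called cells.

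Cells with at least 200 genes and at most 5% mitochondrial UMIs were kept (30156 of 38073). The authors' upper limit of 12000 UMIs was not applied, since RNA-rich cells would be lost, and is given as an alternative. Counts were summed per library, and CPM is per 1000000 UMIs of the summed cells. KO and WT were compared gene by gene with edgeR 4.0.16 (R 4.3.3; quasi-likelihood test, filterByExpr, TMM normalization, Benjamini-Hochberg adjusted p under 0.05), with libraries as replicates. Shares were compared between genotypes by exact two-sided permutation tests over libraries, and within libraries by exact sign-flip permutation tests adjusted over 3 genes. For the latter, each cell was thinned at random without replacement to 2000 UMIs. The members and gene lists were chosen with earlier results of these data known. Genes named were the 4 most abundant of each list in cycle-gated cells, the 10 with the highest ratios outside the lists, up to 8 called genes in each direction between genotypes, and the gate, subset, Cd4, Cd8a and H2-O genes, and the most abundant gene of each marker list; others are said to have been chosen after their values were seen. Some genes that this rule or the marker lists hold are not reported here. No doublet caller was run. Intervals and limits from a count of 0 cover counting error only. Alternatives included DESeq2 1.42.0, other filters, depths and gates, and leaving out each library; the gate of 6 or more cycle gene UMIs was added after seeing the data. Promoter sequences came from RefSeq.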

Additional observations from a re-analysis of the deposited data

How the results depend on the processing

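With 3 mice per genotype the exact permutation test used for shares cannot go below 0.1, and few cells per library (39 to 134) limit each share. At a gate of at least 3 cycle gene UMIs, the KO minus WT difference moved to 11.6 points for the Foxp3+ share and -10.8 for the Cxcr5+ share. At 6 or more it was 13.1 and -12.3 points, and 0.062 points for the gated share of Foxp3- cells. With the gate applied after thinning to 2000 UMIs it was 19.4 points for the Foxp3+ share, -1.09 for the Ccl5+ share and 1.45 for the gated share of Foxp3+ cells. With at most 12000 UMIs per cell it was 4.51 points for the Foxp3+ share and -2.95 for the Cxcr5+ share, and the libraries overlapped for both. The Cxcr5+ difference was -3.65 points with the gate after thinning, -2.98 with at most 10% mitochondrial UMIs and -2.92 without H2-O WT replicate 1. The cause was not tested.

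Against other T cells, the Foxp3 difference no longer passed the exact sign-flip permutation test at 3 or more UMIs (4.7 points), at 6 or more (3.17) and thinned to 1500 UMIs (4.13), nor did that of Cxcr5 (0.565, 0.372 and 0.379 points). For Ccl5 (10.5, 8.4 and 6.63 points, higher in 6 of 6 libraries each time) the exact p stayed at 0.031, the smallest possible, and the p adjusted over the 3 genes was 0.09375. The Cxcr5 difference also missed it with at most 12000 UMIs per cell (3.65 points), at most 10% mitochondrial UMIs (2.8) and at least 10% ribosomal protein UMIs (2.84). Leaving out a library gave 6.83 to 8.85 points for Foxp3, 8.13 to 9.33 for Ccl5 and 1.67 to 2.09 for Cxcr5, where the smallest p possible is 0.0625.

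The count of genes called between genotypes by edgeR was 6 with at most 12000 UMIs per cell, 3 at 3 or more cycle gene UMIs, 5 at 6 or more, 118 with no filter beyond 1 UMI, and 1 to 51 when a library was left out; DESeq2 called 17. The 12 genes kept their sign wherever they were tested. Replicate numbers are shared by the genotypes, but same-numbered libraries deviated together only weakly (correlations of 0.0211, 0.023 and 0.143). A fit with a replicate block called 14 genes, 10 of them among the 12. The paired difference in the Foxp3+ share was 7.45 points (exact permutation test, p = 0.25, the smallest possible).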
